A study of Mus musculus with 8 samples.

Results

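The small RNA of mouse sperm after MC-LR was compared with that of control sperm over the 13450 piRNA names of the deposited table that holds both groups. The whole series lists 20210 names. A piRNA name is a database entry for a short RNA, here of 17 to 35 nt. Each name was used once, although 5743 names were listed at more than 1 locus. The locus of highest mean level was taken, and loci with equal values were settled by sorted chromosome and start. The printed place of such a name is thus not shown to be its source. Control and MC-LR sperm both came from Balb/c mice 8 months after birth, with 2 libraries (A and B) in each group and no genetic change named for either. MC-LR is microcystin-LR, a toxin of cyanobacteria and an inhibitor of the protein phosphatases PP1 and PP2A. The design text mentions 2 doses, but the labels give no dose, route or duration, and they do not say which library had which dose. They also do not tell whether A and B were separate animals or pools. The p-values below therefore cover the spread between the libraries alone, and that spread may be technical.

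In the male germ line, piRNAs are bound by PIWI proteins, mostly begin with U, and in the mouse testis come largely from long precursor transcripts of a limited number of loci, some of which are transcribed in both directions from 1 start region. The names of this table also cover pieces of other RNAs. Small nucleolar RNAs (snoRNAs) guide the chemical modification of ribosomal RNA: box C/D snoRNAs carry box C near the 5′ end and box D near the 3′ end, and box H/ACA snoRNAs carry an ACA box a few bases before the 3′ end. MicroRNAs pair with their targets mainly through a seed near the 5′ end, and members of a family such as let-7 share it.

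The results turned on 3 kinds of sequence, given 5′ to 3′ as in GENCODE M21 transcripts (GRCm38, T for U) or as RefSeq mature microRNAs. The first kind rose after MC-LR and nearly always began with T, here in capitals; the names lie on exons of the noncoding genes Gm49794, Gm21221 and Gm21269 and of the protein-coding genes Nemp1 and Tbl2.
piR-mmu-2597977: Tgattagatgaatatggtgatgtggctga
piR-mmu-2630260: Tgtgaattgccagagcagccaaggacctga
piR-mmu-3842578: Tgacagagggctatctatgctgggac
piR-mmu-252873: Tacaaatatgggcccctggaaaatgaac
piR-mmu-2671278: Tctattgtggattcaggtttctgataagat

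The second kind came from snoRNA genes and is shown because names at the 3′ end of a gene lost more of the list than those at its 5′ end. Capitals mark CTGA, the letters of box D, at the 3′ end of the box C/D gene Snord21 and of Gm25835, TGATGA, the core letters of box C, at the 5′ end of Snord21, and ACA at the 3′ end of the H/ACA genes Snora16a and Snora24.
piR-mmu-2198656, Snord21 5′ end: gccaaTGATGAcaccacactaactgagc
piR-mmu-2120434, Snord21 3′ end: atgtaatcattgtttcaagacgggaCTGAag
piR-mmu-4679168, Gm25835 3′ end: gcaaaggatcagtccttgtattCTGAga
piR-mmu-1461305, Snora16a 3′ end: ctgcaacattgtggaaaatgACAgct
piR-mmu-2360037, Snora24 3′ end: agattctgacttgagcaagtgACAttc

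The third kind was the microRNAs, shown for their levels and for the families that differed within them, with the seed (bases 2 to 8) in capitals. The let-7 members share 1 seed and miR-125a and miR-125b another.
miR-148a-3p: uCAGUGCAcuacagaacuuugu
let-7c-5p: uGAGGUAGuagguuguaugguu
let-7b-5p: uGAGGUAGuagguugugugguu
miR-125a-5p: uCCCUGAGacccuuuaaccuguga
miR-125b-5p: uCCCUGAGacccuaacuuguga

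Levels are given as RPM, a name's reads scaled to its library's total, and the totals were 14634370 and 4960467 reads in control A and B and 5941139 and 6560723 in MC-LR A and B. Listed names summed to 38.1% and 35.3% of those totals in control and to 12.5% and 11.7% after MC-LR. The names overlap along the genome, in 1100 stacks with 4708 distinct 5′ ends, and may share reads, so a sum can count a read more than once. Per library total, 9703 of 13271 tested names fell (73.1%) and 314 rose (2.37%; limma with Benjamini-Hochberg adjustment at 0.05). Leaving out MC-LR A gave 5259 falling names and leaving out MC-LR B 5373. The table had an edge of its own: 13135 names had a log2 ratio of group means from −5.60 to −0.24, 315 had one from 0.89 to 5.64, and only 3 lay between −0.52 and 3.36. The list thus holds almost no name with little change, so the calls of rises were nearly fixed by the listing and are no independent support. RPM is relative to each library's total, so a smaller amount of listed RNA and a larger amount of unlisted RNA cannot be told apart. Nor can fewer cells of a type and less RNA per cell. For this reason each name was also expressed as its share of the listed total in the same library, called here the within-list scale, which takes away the common fall. On that scale 508 names were lower (3.83%) and 316 higher (2.38%), and edgeR with TMM factors on the recovered reads gave 404 (3.04%) and 316 (2.38%; Benjamini-Hochberg adjustment at 0.05). The lower names numbered 37 if MC-LR A was left out, 63 if MC-LR B was, 1285 if control A was and 802 if control B was, and the higher names 644 and 478 for the last pair.

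Within the list, snoRNA pieces held a smaller share after MC-LR and microRNAs a larger one. Names on snoRNA genes made up 22.0% and 27.7% of the listed total in the A and B controls and 14.5% and 13.7% in the MC-LR libraries. Both MC-LR libraries lay below both controls, by 10.7 percentage points on average. MicroRNA genes made up 13.0% and 9.26% in control and 18.2% and 17.1% after MC-LR, 6.50 points more, again without overlap. The largest class, ribosomal RNA, was nearly constant at 28.5% and 27.2% in control and 29.2% and 28.6% after MC-LR. Names outside genes had 20.04% and 18.8% in control and 21.6% and 23.97% after MC-LR, and protein-coding exons 6.93% and 6.86% in control and 5.55% and 5.31% after MC-LR. Long noncoding exons, the class with many piRNA precursors, had 0.334% and 0.339% in control against 0.743% and 0.627%. Of the 144 tested names of that class 32 were called higher within the list, against 2.38% over all names. Such calls were nearly fixed by the listing. With 2 libraries against 2, a two-sided exact permutation test cannot go below p = 0.333, which is what each of these differences reached, so none can pass a threshold of 0.05.

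**Figure D1:**
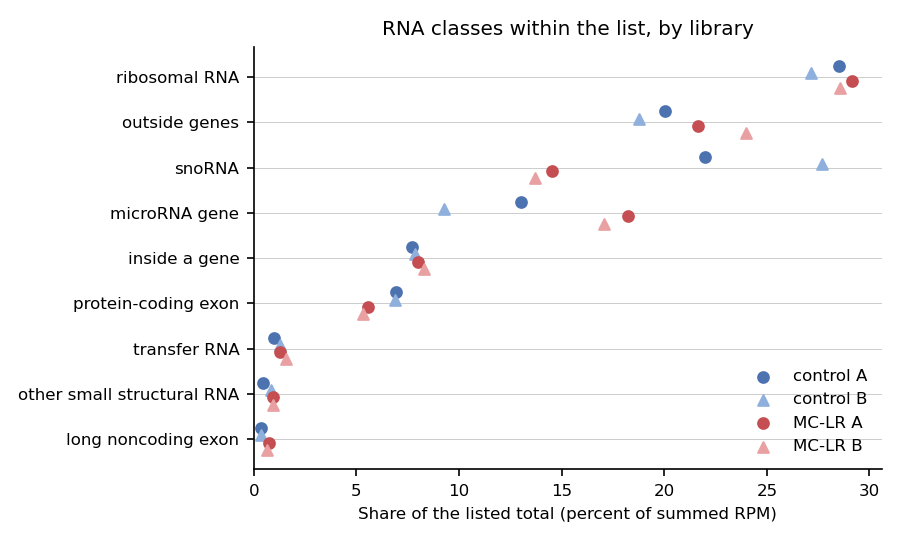
Share of the listed total (percent of summed RPM, x axis) held by each of 9 RNA classes (y axis) in each library; blue, control; red, MC-LR; circles, A; triangles, B. Both MC-LR libraries lie to the left of both controls for snoRNA (14.5% and 13.7% against 22.0% and 27.7%) and to the right for microRNA genes (18.2% and 17.1% against 13.0% and 9.26%).

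In RPM every class was lower after MC-LR, and the classes differed in how far. The summed RPM of snoRNA names was 5.31-fold lower, that of protein-coding exons 3.84-fold, of ribosomal RNA 2.93-fold, of transfer RNA 2.41-fold, of microRNA genes 1.92-fold and of long noncoding exons 1.48-fold. The protein-coding exon figure does not stand for coding genes at large. Names at 11:96081053–96081214, with Lars2 as leading label, stood at 20298 and 15280 RPM in control and 4596 and 3799 RPM after MC-LR. Of these 207 names 2 had a single listed locus, so where most of their reads arose is unknown. Among snoRNAs, the box H/ACA names had the largest RPM ratio, 7.83-fold, with 0.362% and 0.349% of the list in control and 0.129% and 0.146% after MC-LR. The box C/D names (gene symbols beginning with Snord) stood at 10.6% and 12.8% in control and 7.03% and 6.68% after MC-LR. The small Cajal body RNAs, guides for spliceosomal RNAs, overlapped between groups, at 0.131% and 0.253% in control and 0.163% and 0.156% after MC-LR. On the within-list scale 409 of 2200 tested snoRNA names were lower and none was higher, with a median log2 change of −0.83 (−1.02 in edgeR with TMM factors), against 508 lower and a median of −0.03 over all 13271 names.

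To see whether the shift was spread over the genome, names within 10 kb of each other were joined into 162 clusters of at least 10 names. The 8 largest held 55.4% of the listed total, from 52.5% in control B to 57.2% in MC-LR A, so the list was dominated by the same few loci in every library. The largest, the copy of the 45S ribosomal repeat at 17:39842998–39848226, held 22.3% and 21.9% in control and 24.01% and 22.8% after MC-LR (log2 change 0.08 ± 0.09 SE, limma adjusted p = 0.494). The next, outside annotated genes at 6:3200963–3201557, held 8.76% and 8.46% in control and 8.92% and 9.81% after MC-LR. Of the 162 clusters, 45 were lower within the list (27.8%) and 9 higher (5.56%). Leaving out MC-LR A gave 19 lower clusters and leaving out MC-LR B 21, while leaving out control A gave 26 higher clusters and leaving out control B 14. Joining loci only within 2 kb gave 3 higher clusters.

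**Figure D2:**
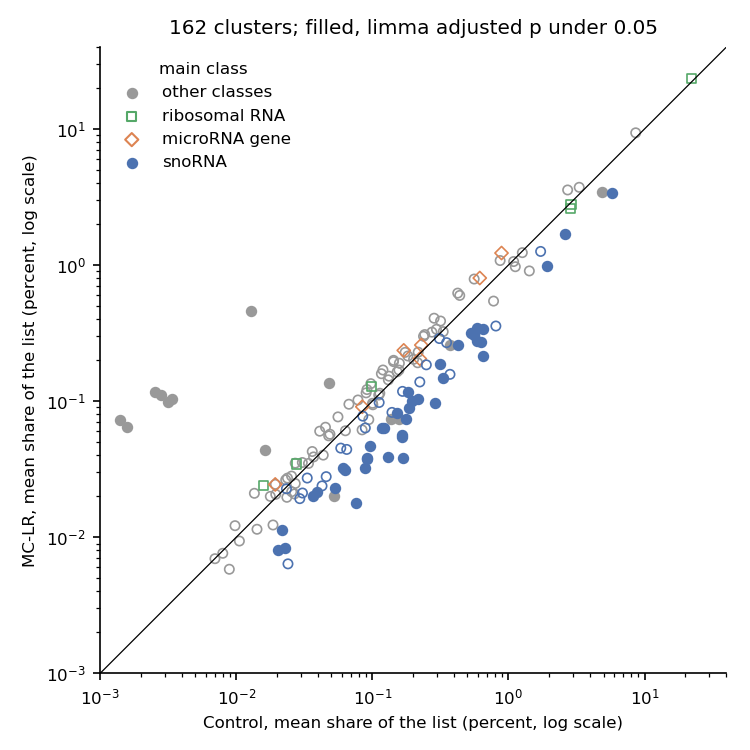
Mean share of the list in control (x axis, percent, log scale) and after MC-LR (y axis, percent, log scale) for 162 clusters; colours give the main RNA class (grey, all classes other than snoRNA, ribosomal RNA and microRNA genes), filled symbols passed the limma test and the line marks equal shares. Filled snoRNA clusters (40) lie below the line, and the 7 grey points far above it are windows of 18.7 to 66.1 kb with rising names.

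Of the 45 lower clusters 40 were on snoRNA genes, of 61 such clusters tested, and both MC-LR libraries lay below both controls in 53 of the 61, against 41.4% of all clusters. The deepest was Gm25835 at 11:69668851–69668996, with 0.141% and 0.195% of the list in control and 0.0355% and 0.0407% after MC-LR, a 4.40-fold lower share (log2 change −2.11 ± 0.26 SE, limma adjusted p = 4.13e-04). Snora24 at 3:123507937–123508066 stood at 0.0766% and 0.0763% in control and 0.0182% and 0.0174% after MC-LR, 4.29-fold lower. The cluster with Snord16a, at 9:64175049–64177191, went from 0.621% and 0.683% to 0.226% and 0.202%, 3.05-fold lower (limma adjusted p = 2.26e-04). Snord60 (17:24528476–24528553) was 3.04-fold lower and the cluster with Snora16a (4:132309466–132310761) 2.92-fold. The most abundant snoRNA cluster lies in Snhg1, a host gene whose introns carry many snoRNAs, at 19:8723995–8725991. It held 5.04% and 6.42% of the list in control and 3.49% and 3.30% after MC-LR, 1.69-fold lower (log2 change −0.74 ± 0.15 SE, limma adjusted p = 0.00613). The cluster of Gas5, another snoRNA host gene (1:161035401–161038378), was 1.94-fold lower, and that with Snord43 (15:80078500–80082920) 1.55-fold. Not every abundant snoRNA passed: Snord85 at 4:130749671–130749705 went from 1.63% and 1.82% to 1.30% and 1.22% (limma adjusted p = 0.0686), and the cluster with Snord14c at 9:40803583–40804837 overlapped between groups, at 0.399% and 0.223% in control and 0.276% and 0.301% after MC-LR.

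The other 5 lower clusters included 1 named by Snrpb, which encodes a core protein of the spliceosome (2:130172908–130172978, 0.0528% and 0.0526% in control, 0.0167% and 0.0233% after MC-LR, 2.63-fold lower). Its 15 names all lie in that short stretch, on the minus strand. Whether their reads came from Snrpb messenger RNA was not tested. A cluster named by Lars2, the mitochondrial leucyl-tRNA synthetase, at 11:96081053–96081214 went from 5.33% and 4.33% to 3.69% and 3.24%. The leading name there is listed at 5 loci, and where its reads arose is unknown. Its log2 change was −0.48 (limma adjusted p = 0.0436). Leaving out control A gave −0.33, leaving out MC-LR A −0.57 and leaving out MC-LR B −0.38, and none of these passed (limma adjusted p = 0.124, 0.0630 and 0.266). The remaining 3 lay inside 5430416N02Rik, inside Fgfr2 and outside genes on chromosome 7.

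The place of a name within its snoRNA gene went with how far it fell. A name was set at an end where its own end lay within 5 nt of the end of the GENCODE gene, and 81 genes had names at both ends. In these genes the names at the 5′ end made up 24.04% and 24.2% of the level in the controls and 33.2% and 33.5% in the MC-LR libraries. The groups were far apart compared with the spread within each (SD 0.0916 and 0.209 points, n = 2 each). In RPM the 3′ end names were 6.14-fold lower after MC-LR and the 5′ end names 3.87-fold. Their median within-list log2 change was −1.23 at the 3′ end, where 219 of 674 tested names were lower, and −0.31 at the 5′ end, where 10 of 536 were, against 3.83% lower over all names. Gene by gene, both MC-LR libraries had a higher 5′ end share than both controls in 57 of the 81 (70.4%), a lower one in none (0.0%), and overlapped in 24. The median length was 28 nt at the 3′ end and 27 nt at the 5′ end.

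**Figure D3:**
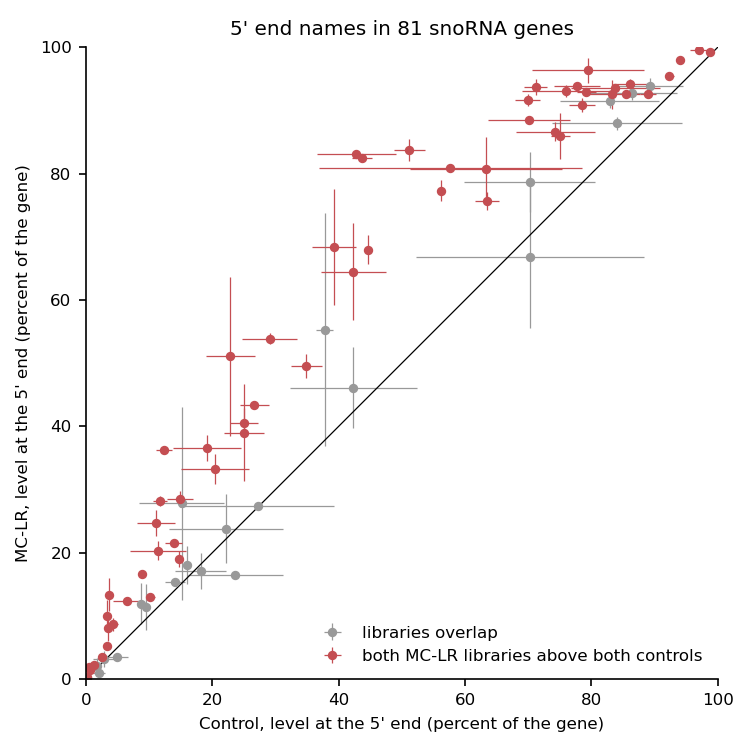
Percent of a snoRNA gene's end names, by level, that lies at its 5′ end, in control (x axis) and after MC-LR (y axis); points are the means of 2 libraries and bars reach both libraries. In 57 of 81 genes (red) both MC-LR values exceed both control values; the line marks equal shares.

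The shift varied between genes, from 0.123 to 40.3 points among the 57. In Gm24452, with the most abundant snoRNA names, the 5′ end share was 2.88% and 2.17% in control and 3.19% and 3.76% after MC-LR, and in Snord57 87.7% and 90.3% against 92.5% and 92.5%. Larger shifts, of more than 20 points, were seen in Snord89, Snord55, Gm25835 and Snord21. In Snord89 the 5′ end share was 42.1% and 45.3% in control and 82.5% and 82.5% after MC-LR. In Snord55 it was 44.6% and 44.6% in control and 70.3% and 65.7% after MC-LR, and in Gm25835 13.7% and 11.0% against 36.1% and 36.4%. In Snord21, the 5′ end name printed above (5:107904555–107904582, plus strand) stood at 167 and 169 RPM in control and 37.2 and 39.0 RPM after MC-LR (within-list log2 change −0.54 ± 0.31 SE, limma adjusted p = 0.437). Its 3′ end name (5:107904613–107904643) stood at 32.5 and 53.4 RPM in control and 4.04 and 4.27 RPM after MC-LR (within-list log2 change −1.62 ± 0.37 SE, limma adjusted p = 0.0307). Snord66 was the gene furthest the other way, and its libraries overlapped, at 31.2% and 16.1% in control and 16.9% and 15.8% after MC-LR.

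On the sequence of the name, CTGA stood within the last 12 nt of 91.2% of the snoRNA names at the 3′ end, 69.3% of those in the middle of a gene, 32.3% of those at the 5′ end and 7.67% of the names of all other classes. TGATGA stood within the first 15 nt of 67.7% of the 5′ end names, 20.8% of the middle names, 4.26% of the 3′ end names and 0.959% of the names of other classes. Of 43 H/ACA names at the 3′ end, 40 had ACA 3 nt before the end, a place where 1.09% of the other classes' names had it. These are matches of letters in the printed strand and not a measure of binding.

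The 8 largest falls of single names within the list, among names of at least median level and 1 for each stack, were all on snoRNA genes. The Gm25835 name piR-mmu-4679168 (11:69668854–69668881) stood at 108 and 123 RPM in control and 2.86 and 4.12 RPM after MC-LR (within-list log2 change −3.29 ± 0.34 SE, limma adjusted p = 3.17e-04). The Snora16a name piR-mmu-1461305 (4:132309575–132309600) stood at 47.4 and 48.6 RPM in control and 1.35 and 1.22 RPM after MC-LR, a within-list change of −3.20, and the Snora24 name piR-mmu-2360037 (3:123507937–123507963) at 107 and 95.8 RPM and 4.88 and 4.42 RPM, a change of −2.72. In all 3 the MC-LR libraries were far below the controls, and the values after MC-LR rest on few reads, since 3 reads are 0.505 RPM in MC-LR A and 0.457 RPM in MC-LR B. The others were on Snord80 (−3.01), Gm22519 (−2.70, listed at 2 loci), Snord16a (−2.59), Scarna2 (−2.49) and Snord104 (−2.45). The Scarna2 call was lost without MC-LR B (log2 change −1.76, limma adjusted p = 0.134). The most abundant snoRNA names, both ending at 19:8724600 in Snhg1, had smaller changes within the list, −0.58 for piR-mmu-2047156 and −0.53 for piR-mmu-18443 (limma adjusted p = 0.415 and 0.435).

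Against this fall stood 315 names with a higher mean RPM after MC-LR. Together they held 0.0472% and 0.0704% of the listed total in the controls and 2.57% and 2.27% in the MC-LR libraries, and their summed RPM was 13.7-fold higher. The names were picked by that rise, and the second smallest log2 ratio among them was 3.36. A large rise of the sum was thus fixed by the choice, so it describes these names and tests nothing. They were long, 201 of 29 to 33 nt and 105 of 24 to 28 nt, and split evenly between strands, 157 plus and 158 minus. They also lay apart, in 283 stacks. In control they were at the limit of the depth: their median was 0.273 RPM (4 reads) in control A and 0.403 RPM (2 reads) in control B, against 7.24 RPM (43 reads) in MC-LR A and 5.64 RPM (37 reads) in MC-LR B. For 120 of them neither control library had more than 3 reads, and a fold for such a name alone is loose, while the sum rests on 2628 and 1232 reads in control. The class of origin was outside genes for 190, inside a gene for 81, long noncoding exons for 32 and protein-coding exons for 9.

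The first base set the rising names apart from the falling ones. Of the 58 rising names with a known sequence, 53 began with T (91.4%), against 2529 of 8828 falling names (28.6%). Within long noncoding exons it was 30 of 31 rising names against 23 of 114 falling ones, and within protein-coding exons 7 of 8 against 216 of 680. By level, T came first in 17.3% and 23.99% of the long noncoding exon RPM in control and in 59.3% and 56.5% after MC-LR. Among the falling names of that class it was 15.9% and 21.7% in control and 16.1% and 15.9% after MC-LR. A at the tenth base, a feature of piRNAs made by the ping-pong cycle, was found in 17 of 58 rising names (29.3%) and in 21.9% of the falling ones. The rising names are not all independent. Those on Gm47365, Gm48451, Gm47366 and Gm48454 include near copies of the same sequence, with T first and A at the tenth base. On Gm49794, piR-mmu-2597977 and piR-mmu-15832 share a 5′ end. Sequence was at hand for few rising names, since most lie outside transcripts.

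Of the rising names 130 lay in 7 windows of 18.7 to 66.1 kb, which together held 0.0217% and 0.0335% of the list in control and 1.09% and 0.965% after MC-LR. The windows were picked as clusters with at least a share of 0.5 of names higher, so their rise describes them and tests nothing. The window with Gm49794 at 17:27292140–27358271 held 0.00998% and 0.0156% in control and 0.494% and 0.423% after MC-LR. What the choice did not use is the strand. In the 5 windows with names on both strands, every minus-strand name lay before every plus-strand name, with a gap of 2264 to 9659 bp between them. Names were joined only within 10 kb, so a wider gap could not appear, and arms further apart would count as separate clusters. Some of the windows rest on few names: the chromosome 18 window had 1 plus name against 14 minus, and the one at 5:113337817–113356536 had 2 minus names against 8 plus. On chromosome 17 the 24 minus names ended at 27321028 and the 20 plus names began at 27327162. On chromosome 6 there were 7 minus names up to 127795816 and 6 plus names from 127798081. The windows at 2:92542029–92582152 (20 plus names) and 5:149801387–149824796 (12 minus names, with exons of Gm21221) lay on 1 strand. Of the other 155 clusters 149 lay on 1 strand. Of the 6 with both, 4 had plus names first and 2 were mixed, and all 6 were shorter than 10 kb. Only 1 of the 155 was 10 kb or longer, so there was almost no cluster of like size to set beside the windows.

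**Figure D4:**
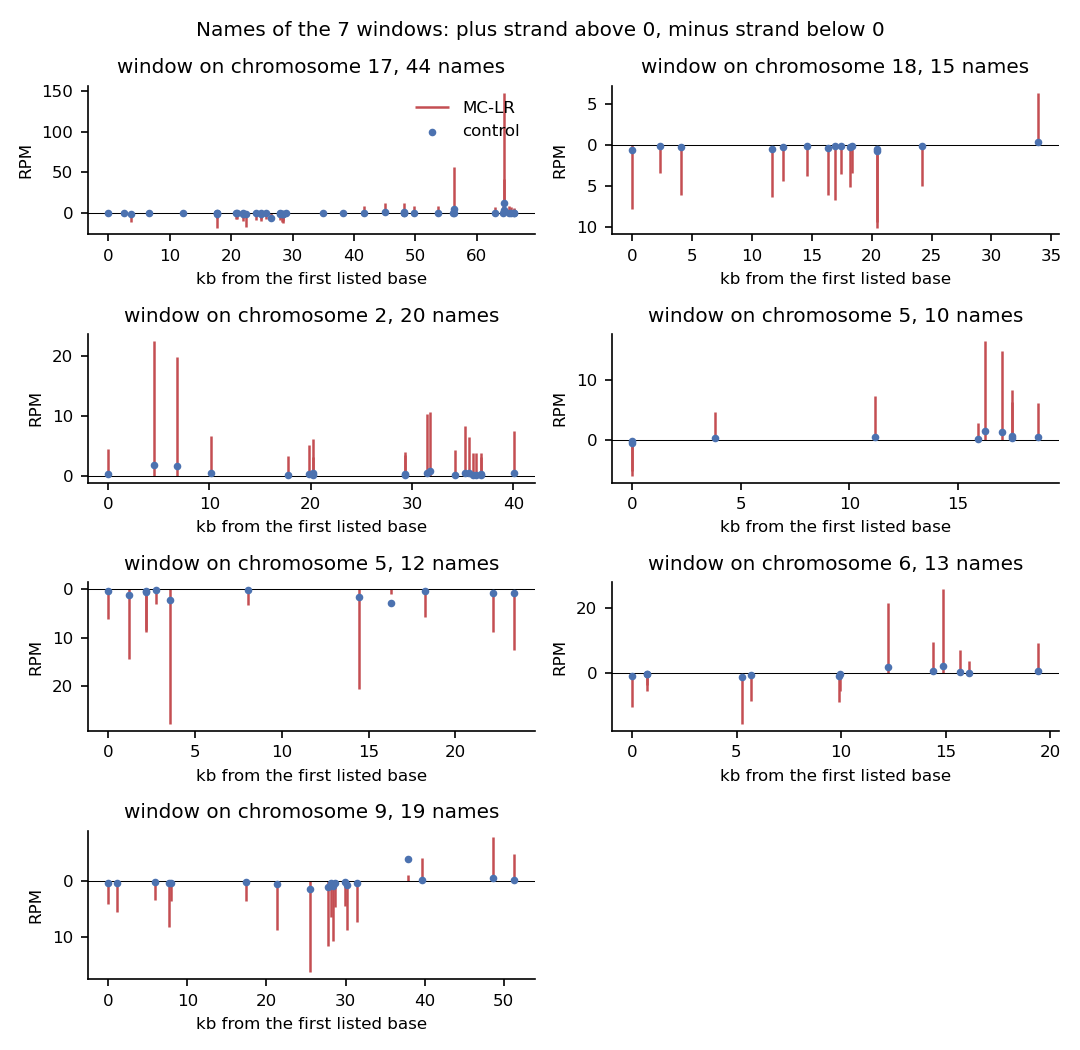
Each listed name of the 7 windows by its distance in kb from the first listed base (x axis) and its mean RPM (y axis), plus strand above 0 and minus strand below; red lines, MC-LR; blue points, control. In the 5 windows with both strands, all minus names come before all plus names, and 130 of the 133 names were higher within the list.

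The other 2 higher clusters were of another kind. At 15:83149713–83149795 lay 10 names on Rnu12, a small nuclear RNA of the minor spliceosome, and 1 name labelled Gm24525. This cluster rose in share from 0.0304% and 0.0660% in control to 0.138% and 0.133% after MC-LR. In RPM the cluster stood at 116 and 233 in control and 172 and 156 after MC-LR, between the controls. The 10 Rnu12 names went the other way, with 0.0265% and 0.0637% of the list in control and 0.0135% and 0.0225% after MC-LR, a 7.54-fold lower RPM, and none was called within the list. The name labelled Gm24525 was the only one called higher, the 18 nt piR-mmu-48885749. It is listed at 2 loci, and its printed locus, 15:83149713–83149730, lies at the start of this cluster. The label can belong to the other locus, so whether its reads came from Rnu12 or Gm24525 is unknown. The name stood at 14.9 and 8.27 RPM in control and 155 and 130 RPM after MC-LR (within-list log2 change 5.09 ± 0.34 SE, limma adjusted p = 2.00e-04). The cluster at 5:114845989–114852878 had 3 higher names of 22 and summed to 60.3 and 59.3 RPM in control and 52.0 and 53.8 RPM after MC-LR, with a much smaller RPM difference than the list as a whole. Its share went from 0.0158% and 0.0168% to 0.0417% and 0.0459%.

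The leading single rises were close in size. The Gm49794 name piR-mmu-2597977 (17:27356495–27356523) stood at 8.68 and 16.1 RPM in control and 180 and 116 RPM after MC-LR (within-list log2 change 5.03 ± 0.39 SE, limma adjusted p = 2.00e-04). The Nemp1 exon name piR-mmu-252873 (10:127694470–127694497) stood at 1.30 and 1.21 RPM in control and 16.7 and 18.4 RPM after MC-LR. The Gm21221 name piR-mmu-2630260 (5:149804964–149804993) stood at 2.05 and 2.42 RPM in control and 29.3 and 26.2 RPM after MC-LR. In these 3 both MC-LR libraries were far above both controls. The Gm21269 name piR-mmu-3842578 (7:73817812–73817837) stood at 0.205 and 1.01 RPM in control and 10.1 and 8.54 RPM after MC-LR, and the Tbl2 name piR-mmu-2671278 (5:135162285–135162314) at 0.410 and 0.605 RPM and 10.8 and 9.76 RPM. A name on Ago2, which encodes an Argonaute protein of the microRNA pathway, piR-mmu-2697092 (15:73105640–73105669), stood at 0.137 and 0.403 RPM in control, under 3 reads in each, and 5.22 and 3.35 RPM after MC-LR. These exon names were picked for display after their values were seen. Unlike most of the others, piR-mmu-8117009 (1:167340462–167340481, 5.17, listed at 3 loci) and piR-mmu-49306705 (2:130636504–130636523, antisense in Lzts3, 4.73) were only 20 nt long. The rest of the 8 largest rises were piR-mmu-2604210 (4.89) and piR-mmu-48737441 (4.52) on chromosome 14, piR-mmu-117350 (4.80) on chromosome 17 and piR-mmu-2662924 (4.52) on chromosome 6, all outside genes.

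MicroRNAs held a larger share as a class with few calls on single names: 2 of 501 tested names were lower within the list and 2 higher, against 3.83% and 2.38% over all names, with a median log2 change of 0.16 (0.26 with TMM factors, −0.97 per library total). The most abundant name of all, miR-148a-3p (piR-mmu-48707800, 6:51269829–51269850 in Mir148a), held 4.65% and 3.05% of the list in control and 7.62% and 5.75% after MC-LR (log2 change 0.81 ± 0.32 SE, limma adjusted p = 0.244). The let-7c name piR-mmu-10879204, listed at 3 loci, held 1.04% and 0.677% in control and 1.93% and 1.64% after MC-LR (log2 change 1.08 ± 0.32 SE, limma adjusted p = 0.0921). It passed without control A (1.40, limma adjusted p = 0.0296).

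Over names of all classes, 237 began exactly at the start of 1 of 96 mature microRNAs. Of these, miR-3535 has the sequence of the snoRNA name piR-mmu-17371485 at the 5′ end of Gm24148. The microRNAs differed among themselves. As shares of their own sum, both MC-LR libraries lay above both controls for 6 (6.25%) and below for 37 (38.5%). miR-148a-3p held 39.9% and 37.4% in control and 45.1% and 37.0% after MC-LR, with overlap. The let-7 seed, shared by 9 mature microRNAs, held 21.5% and 21.7% in control and 24.8% and 24.6% after MC-LR. The members did not move alike: let-7c-5p, from 4887 and 3059 RPM to 2840 and 2353 RPM, was 10.3% of the sum on average in control and 12.8% after MC-LR. let-7b-5p, which differs from it outside the seed, went from 1015 and 719 RPM to 383 and 329 RPM, or from 2.27% to 1.76%. The seed of miR-125a and miR-125b, from 2.52% and 2.60% in control to 1.08% and 1.61% after MC-LR, was 3.64-fold lower in RPM. The seed of miR-200b, miR-200c and miR-429, microRNAs of epithelia, held 13.0% and 14.5% in control and 10.7% and 12.5% after MC-LR.

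The microRNA genes also served as markers of cells that sperm samples can hold. The germ line and sperm list had listed names for 2 of 10 genes, Mir10a and Mir10b, at 0.0752% and 0.0545% of the list in control and 0.123% and 0.0966% after MC-LR. None of the 15 X-linked testis microRNA genes had one. Since the table holds nearly only names that changed, a gene with no listed name is not shown to be absent from sperm. Of other cell types, the epithelial list had names for 6 of 6 genes, at 1.70% and 1.35% in control and 1.95% and 2.14% after MC-LR. Smooth muscle (2 of 2 genes) stood at 0.0781% and 0.0620% in control and 0.0864% and 0.113% after MC-LR, and muscle (1 of 6) at 0.107% and 0.0622% against 0.132% and 0.135%. Leukocyte (3 of 4) and blood (1 of 4) microRNAs were at 0.0114% or less in each library, and liver had 0 of 1. The let-7 list (12 of 12 genes) stood at 2.65% and 1.90% in control and 4.34% and 3.998% after MC-LR. The let-7, epithelial, smooth muscle, muscle, leukocyte and germ line lists all had a higher share in both MC-LR libraries, as the microRNA class had, while the blood list overlapped. The part of other cells in the result was not tested.

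Transfer RNA names overlapped between groups, at 1.00% and 1.27% of the list in control and 1.26% and 1.59% after MC-LR. None of 121 was called within the list, against 3.83% lower and 2.38% higher over all names. Pieces that began within 2 nt of the 5′ end of a tRNA gene dominated them, with 81.4% and 88.7% of the tRNA level in control and 91.0% and 91.4% after MC-LR. Among isotypes glycine had the most, 0.461% and 0.689% of the list in control and 0.718% and 0.893% after MC-LR, without overlap. Glutamate, at 0.345% and 0.378% against 0.357% and 0.447%, overlapped. The leading glycine name piR-mmu-10845317 (1:171066631–171066659, listed at 5 loci) stood at 779 and 1318 RPM in control and 534 and 645 RPM after MC-LR. Its within-list change of 0.81 ± 0.36 SE (limma adjusted p = 0.310) passed only without control B (1.24, limma adjusted p = 0.0152).

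Ribosomal RNA, the class with most names, had 41 lower and 1 higher of 5240 within the list and a median of −0.01, against 3.83% lower and 2.38% higher over all names. Its leading name, piR-mmu-49083875, of 18 nt and listed at 2 loci, held 0.911% and 0.309% in control and 0.691% and 0.907% after MC-LR, with overlap. It was called within the list only without control A (1.36, limma adjusted p = 0.00756). Among other small structural RNAs, Rmrp, the RNA of RNase MRP, stood at 0.255% and 0.593% in control and 0.625% and 0.619% after MC-LR. It held most of the sum of that class, whose median name lay at −0.18, opposite in sign to the sum. The most abundant name inside a gene, piR-mmu-21467820 (5:124833071–124833095, antisense in Dnah10, which encodes a dynein heavy chain), stood at 1378 and 1030 RPM in control and 137 and 158 RPM after MC-LR. It was lower within the list (−1.42 ± 0.31 SE, limma adjusted p = 0.0259). Leaving out MC-LR A gave −1.27 and leaving out MC-LR B −1.57, and neither passed (limma adjusted p = 0.416 and 0.215).

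Length did not separate the groups as a whole. The mean length by level was 24.9 nt in control A and 26.7 nt in control B, on either side of 25.4 and 25.3 nt in the MC-LR libraries. Names of 29 to 33 nt, the range of most pachytene piRNAs, held 18.2% and 33.6% in control and 23.5% and 24.6% after MC-LR, a difference of −1.87 points (two-sided exact permutation p = 1; smallest possible 0.333). Without control B the difference was 5.85 points. Names of 22 nt, the length of most microRNAs, held 11.7% and 7.92% in control and 15.4% and 13.6% after MC-LR, and names of 28 nt 9.99% and 11.8% against 9.55% and 9.12%; neither overlapped. Within long noncoding exons, 29 to 33 nt names held 28.4% and 42.7% in control and 56.6% and 54.2% after MC-LR, without overlap. That class includes 32 of the rising names, which were picked by their rise. Its length shares among falling names alone are not given, so the shift may restate that choice.

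**Figure D5:**
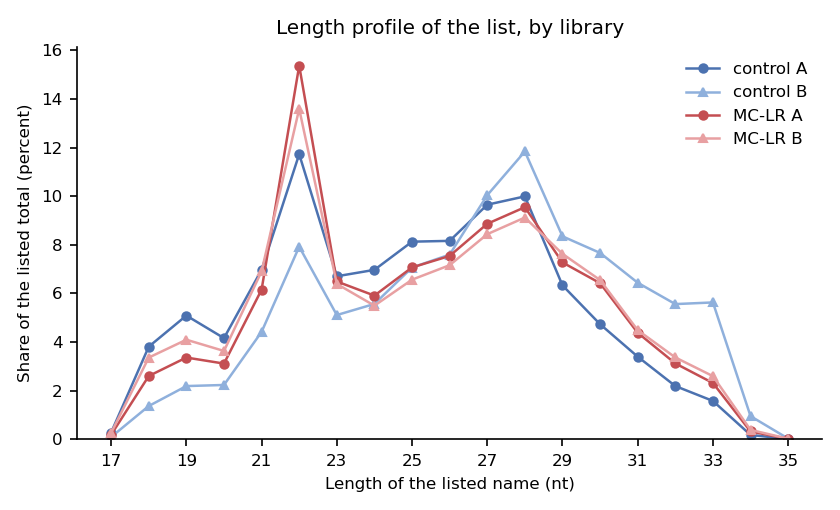
Share of the listed total (percent, y axis) by length of the name (nt, x axis) in each library; blue, control; red, MC-LR; circles, A; triangles, B. Both MC-LR lines exceed both control lines at 22 nt (15.4% and 13.6% against 11.7% and 7.92%), while from 29 nt on they run between the controls.

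Sense and antisense shares overlapped between groups over all classes. Of the level of names that lie on 1 side of annotated genes only, 77.3% and 79.6% was sense in control and 78.0% and 75.6% after MC-LR (difference −1.62 points, two-sided exact permutation p = 0.667). That difference was −4.58 points without the 20 most abundant names and −0.0029 points with 1 name for each stack. Outside structural RNA and microRNA genes it was 59.6% and 58.8% in control and 66.3% and 64.4% after MC-LR, a difference of 6.14 points without overlap (p = 0.333, the smallest that exact permutation allows here). The plus strand of the genome held 63.0% and 65.3% in control and 61.2% and 60.5% after MC-LR, so both MC-LR libraries lay below both controls. Among names of 24 to 33 nt outside structural RNA and microRNA genes, T came first in 36.9% and 43.8% of the level in control and 45.1% and 46.8% after MC-LR, 5.63 points more (exact permutation p = 0.333). The difference was 41.6 points among names with a single listed locus and 13.9 points with 1 name for each stack, and 2.18 points without control A and 9.07 points without control B. That set holds 704 names with sequence, between 3.78% and 5.36% of the listed total. It includes rising names, which the listing admitted almost only with large rises. Over all classes, 51 of 54 rising names of 24 to 33 nt with sequence began with T. The difference among falling names alone is not given for this set, so these values are no support apart from the rising names.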

How the data were processed

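Small RNA of control and MC-LR sperm (2 libraries each) was analysed from 1 deposited table of loci, piRNA names and RPM. Trizol was used for extraction and an NEBNext Ultra RNA kit for the libraries, per the labels' protocols. Per the submitters' processing notes, the tools were HTSeq 0.6.0, HISAT2 2.1.0 and Bowtie2 2.2.3 on mm10. Their roles, any trimming and the listing rule are not given in the sources used. Every RPM value the authors deposited equals a whole number of reads (100% within 0.01), from which reads and totals were recovered. Depth sets the precision: 3 reads are 0.205 and 0.605 RPM in control A and B, counting error only, and reads carry no molecular identifiers.

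Names with a group mean of at least 1 RPM (13271 of 13450) were tested with limma 3.58.1 (trend, robust) in R 4.3.3 on log2(value + 1), which understates changes of low names, with Benjamini-Hochberg adjustment, per library total and after scaling to the listed total. Alternatives included edgeR 4.0.16 and DESeq2 1.42.0 on recovered reads. On library totals edgeR called 10004 names lower and DESeq2 7254, and both called 314 higher. Python 3.11.15 (numpy 2.4.6, pandas 2.3.3, matplotlib 3.10.9) served for tables and figures.

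Starts were read as 0-based (184 plus-strand loci then begin at a mature microRNA start, 22 otherwise) and are printed 1-based on GRCm38. Classes came from GENCODE M21 and RefSeq GRCm38.p6 where 0.5 or more of a name's bases overlapped; structural RNAs came first (ribosomal before transfer, snoRNA and others), then microRNA genes, coding and noncoding exons, gene bodies and the rest. The first match over all loci of a name was taken, and the gene can thus belong to a locus that is not printed. RefSeq genes were matched without strand. Sequence was taken from transcripts, hairpins and promoters for 8886 names (66.1%); no genome sequence was used. Printed names come from the 6 most abundant, the 8 largest rises and falls within the list (called, at least median level, 1 for each stack) and the most abundant of each class and marker list, and clusters from the 8 largest by share and the 6 largest rises and falls; the other exon names, clusters and genes were chosen after their values were seen. Members, lists and rules were chosen with earlier results of these data known; the ends of snoRNA and tRNA genes, motifs, windows and microRNA families were described after the data were seen.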

Additional observations from a re-analysis of the deposited data

How the results depend on the processing

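Per library total, 314 to 316 names were higher and 5259 to 10729 lower when 1 library was left out, 5792 were lower among 7604 names with a single listed locus, and 613 of 1092 with 1 name for each stack. Within the list, leaving out 1 library gave 37 to 1285 lower (37 without MC-LR A, 63 without MC-LR B, 1285 without control A, 802 without control B) and 314 to 644 higher names (644 without control A, 478 without control B), and 1 name for each stack gave 144 lower. All 37 names called lower without MC-LR A and 58 of the 63 without MC-LR B were among the 508, and 314 and 315 of the names called higher among the 316. Leaving out 1 library gave 19 to 60 lower and 9 to 26 higher clusters, joining within 2 kb gave 3 higher and clusters of at least 5 names 28. The labels do not say whether the letters A and B mark a pairing. The correlation of deviations was 0.07 per library total and 0.06 within the list, but with 2 libraries in each group it cannot decide this. With the letter as a replicate block 1066 names were lower within the list, 508 of them shared with the fit without it. The 29 to 33 nt difference reversed to 0.66 points with 1 name for each stack, to 2.14 without structural RNA and microRNA genes and to 5.85 without control B (−9.58 to 5.85 over the left-out libraries), and the sense difference to 6.14 points without structural RNA and microRNA genes (−2.83 to −0.41 when a library was left out, −4.58 without the 20 most abundant names, −0.0029 with 1 name for each stack). The first-T difference was 2.18 to 9.07 points when a library was left out, 41.6 with single-locus names and 13.9 with 1 name for each stack. All these values include the rising names.

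Single values that changed sign within the list when 1 library was left out, with their lowest and highest log2 change, were piR-mmu-48788131 (−0.24 to 0.32; −0.20 with 1 name for each stack), piR-mmu-49039860 (−0.27 to 0.88), piR-mmu-49608565 (−1.09 to 0.19), piR-mmu-49083875 (−0.20 to 1.36), piR-mmu-2631396 (−0.40 to 0.30; 0.064 in edgeR and DESeq2), piR-mmu-48723362 (−0.16 to 0.65), and the clusters at 10:82955094 (−0.18 to 0.62), 1:56782088 (−0.10 to 0.022; 0.16 with single-locus names) and 16:18533190 (−0.30 to 0.023). The causes were not tested. Depth limits the rising names in control and the deepest falls after MC-LR, which rest on a few reads.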

Other observations

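The 3′ ends of microRNA names varied little between groups. Of the level of names that begin at a mature microRNA start, 67.2% and 65.2% had the RefSeq length in control A and B and 71.6% and 67.5% in MC-LR A and B. Shorter names held 12.8% and 11.8% in control and 10.6% and 13.0% after MC-LR.

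Among genes with names of the class inside a gene, Atf2 held 1.33% and 1.41% of the list in control and 1.36% and 1.32% after MC-LR. Cdk8 held 1.35% and 1.25% against 1.14% and 1.19%, and Fgfr2 0.775% and 0.911% against 0.579% and 0.599%. That class also takes names antisense to exons, so its names are not shown to be intronic. The Fgfr2 and Cdk8 groups did not overlap and the Atf2 groups did. Of the noncoding exons, AA474408 held 0.180% and 0.153% in control and 0.178% and 0.168% after MC-LR, with overlap, and 1110038B12Rik 0.0421% and 0.0365% against 0.0127% and 0.0116%, without overlap.

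The tenth base was A in 0 of 14 rising names with sequence inside the clusters called higher and in 17 of 44 elsewhere. The latter include the near copies on Gm47365, Gm48451, Gm47366 and Gm48454, so they are not all independent.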
